A study of Ovis aries with 24 samples.

Results

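FBXO32, ARRDC2, RASD1 and DDIT4 are 4 genes whose transcripts are known to respond to muscle wasting, fasting or glucocorticoids. They were chosen by name with their values on these arrays in view, so their levels are given as a description, and no test of them is used as support. A probe set was counted as a member where the symbol given for it in the annotation of the array is exactly one of these names. That rule finds the 4 genes among 9156 named ones, on 6 of 24128 probe sets: 2 for FBXO32 (Entrez gene 513776), 2 for ARRDC2 (523285), 1 for RASD1 (507449) and 1 for DDIT4 (529235). All 6 were among the 15613 probe sets that passed the filter on low signal, which means a log2 signal above the median of a group in at least 1 group.

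The arrays measured skeletal muscle of sheep cross-bred from Dorset, Suffolk and Rambouillet stock and differing at the callipyge locus, where a mutation inherited from the sire alone causes postnatal muscle hypertrophy. The genotypes were CC (the homozygote), CN (the paternal heterozygote, with the callipyge trait), NC (the maternal heterozygote) and NN (the wild type). The back muscle longissimus dorsi (LD) came from all 4 genotypes within 5 days of birth, which is T0, and again at T12, when lambs were 11 to 12 weeks old. The shoulder muscle supraspinatus (SS) came from CN and NN at T12, and the muscle coded SM and the hind limb muscle semitendinosus (ST) from NN at T12. The labels name SM in conflicting ways, so the code is kept, and some T12 labels also mention birth, in which case the age code was followed. Each of the 12 groups has 2 arrays, which the labels call technical replicates. The protocols speak of 8 male lambs, 4 of each of 2 genotypes, and the number of animals behind a group is unknown here. The animals of a group and its genotype, age in days or muscle therefore cannot be told apart.

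FBXO32 encodes atrogin-1 (MAFbx), the F-box subunit of a muscle ubiquitin ligase that marks proteins for the proteasome and that FoxO factors switch on in wasting muscle. ARRDC2 is an alpha-arrestin, a family of adaptors that bring ubiquitin ligases to membrane proteins. RASD1 (Dexras1) is a small Ras-like GTPase first found as a dexamethasone-induced transcript. DDIT4 (REDD1) restrains the growth kinase mTORC1 and is induced by glucocorticoids, hypoxia and energy stress. In skeletal muscle, glucocorticoids bind the receptor NR3C1 and raise such genes while protein synthesis is held back.

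Values are linear MAS5 signals, which measure the brightness of a probe set on a scale common to the arrays, and group levels are geometric means of the 2 arrays. The median signal of an array lay between 47.4 and 59.7, and a signal under 47.4 may not be above background. The number of arrays and the signal over background limit the precision, and the probes were designed on bovine transcripts, to which those of sheep may not all match. Of 10 skeletal muscle markers 8 were measured, none of them was below 47.4 on an array of any group, and their summed signal ran from 170220 to 276158 over the 24 arrays. Markers of immune cells summed to 268 to 639 and those of red blood cells to 28.2 to 325. In whole muscle, fewer cells of a type and less RNA per cell cannot be told apart. Differences with a standard error (SE) are on the log2 scale and come from a limma fit over the 12 group values. In it the 3 LD values of CC, NC and NN at one age shared a mean and are called the other genotypes. The error comes from the spread of these 3 values around their mean, pooled over T0 and T12, and is moderated over probe sets. CN, SS, SM and ST add no replication to it. A probe set is called where its Benjamini-Hochberg adjusted p from limma was under 0.05, two-sided, and such p-values measure only the spread between these group values.

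FBXO32 was sharply divided by genotype at birth. On its brighter probe set, the LD signals at T0 were 1228 and 1109.9 in CC, 1793 and 2119 in CN, 225 and 321 in NC, and 106 and 98.3 in NN. The 4 groups did not overlap: CN stood highest, CC next, and both were far above NC and NN. The CN level was 19.1 times that of NN and 7.25 times that of NC, and only 1.67 times that of CC. Against the other genotypes together, CN differed by 2.62 ± 0.89 (SE) at T0, from 1949 against 317.

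At T12 the 4 genotypes were much closer in FBXO32. The LD signals were 2301 and 2464 in CC, 4037 and 3625 in CN, 1788 and 1683 in NC, and 2154 and 2018 in NN. CN was again the highest and NC was the lowest, with no overlap between groups. The difference of CN from the other genotypes was 0.90 ± 0.89, with the error pooled over both ages. The log2 levels of CC, NC and NN were 10.2, 8.07 and 6.67 at T0 but 11.2, 10.8 and 11.0 at T12. Most of that spread is from T0, so the error says little about T12 alone. From T0 to T12 the level was 20.4 times as high in NN, 6.45 times in NC, 2.04 times in CC and 1.96 times in CN. Over the other genotypes together the difference with age was 2.69 ± 0.63, and the age difference in CN was smaller by 1.72 ± 1.26.

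The other muscles at T12 had FBXO32 signals of 1667 and 1988 in SM, 2815 and 3325 in ST, and 3658 and 3831 in SS, all of genotype NN. SS of NN was 1.80 times LD of NN and 2.06 times SM of NN, without overlap, while SM lay just below LD. In SS the CN arrays read 4357 and 4457, above both NN arrays, with a difference of 0.24 ± 1.10. Ordered over the 12 groups, FBXO32 ran from SS of CN down to LD of NN at T0, a span of 43.2-fold. Neighbours whose arrays overlapped were LD of CN and SS of NN at T12, and the run of LD of NN at T12, LD of CN at T0, SM and LD of NC at T12.

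The dimmer FBXO32 probe set had the same order of genotypes at T0, without overlap, and CN again above the others at T12. At T12 its CC arrays (984 and 1021) and NC arrays (986 and 738) overlapped those of NN (1121 and 762), as did those of SM (841 and 839). The separation of CC, NC and SM from LD of NN at that age therefore holds for 1 of the 2 probe sets. Its group levels ran from 48.6 in LD of NN at T0, close to background, to 2092 in SS of CN, a span of 43.1-fold, and correlated with those of the brighter probe set at r = 0.995 over 12 groups. Its difference of CN from the other genotypes was 2.69 ± 0.97 at T0 and 0.82 ± 0.97 at T12, and its difference with age was 2.72 ± 0.69. Both probe sets report on 1 gene, so they are not independent.

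**Figure D1:**
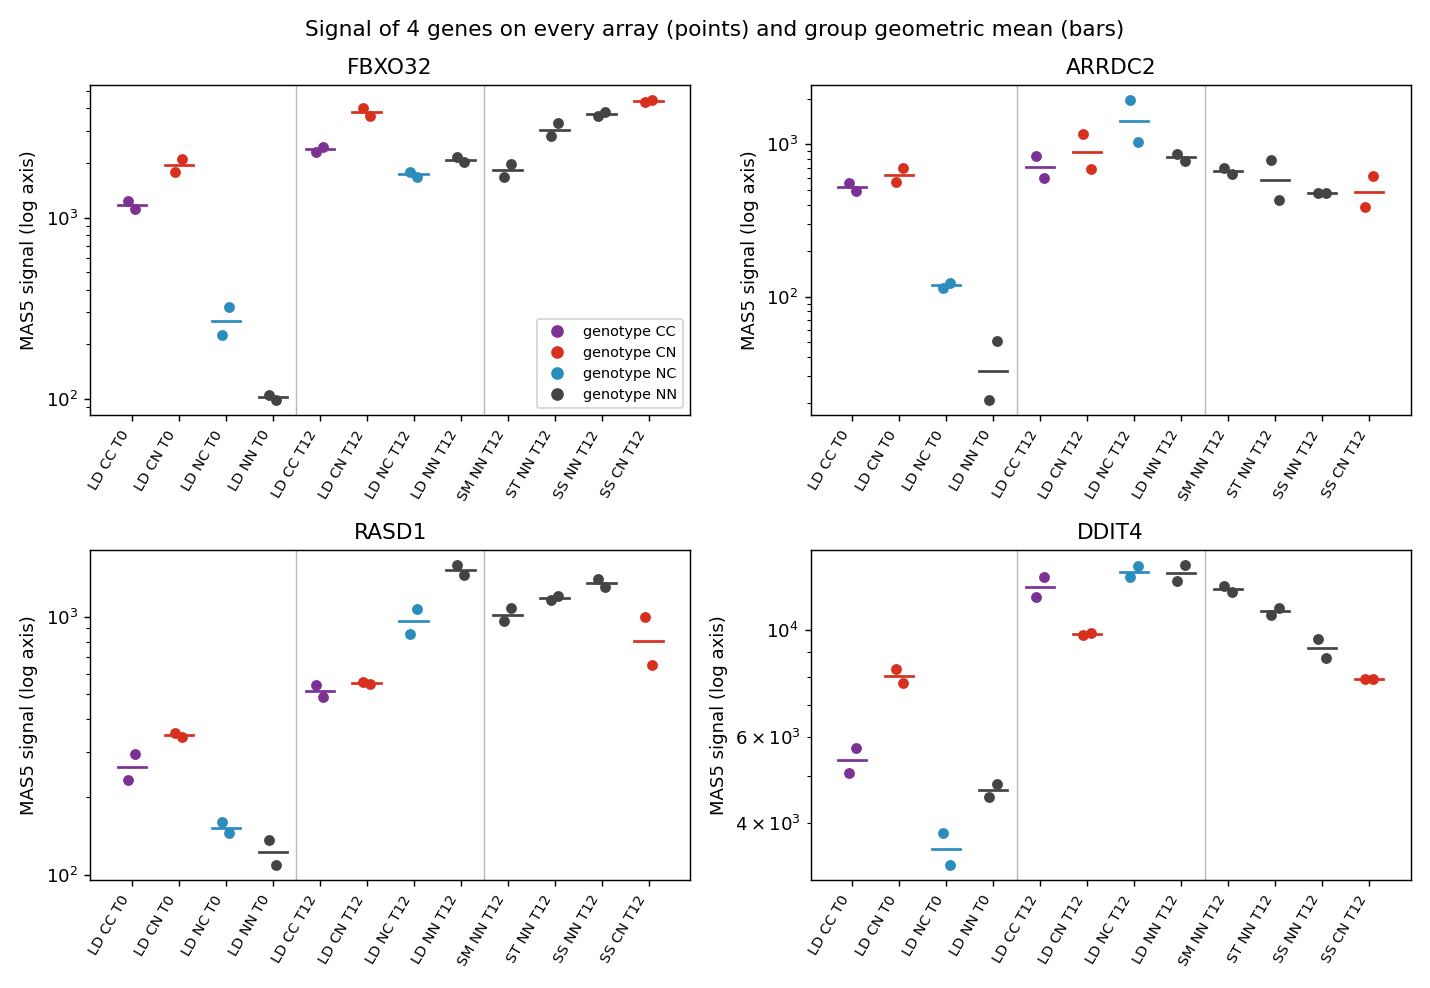
Signal of FBXO32, ARRDC2, RASD1 and DDIT4 (brightest probe set of each) on every array, on a log axis of MAS5 signal, with the 12 groups along the x axis. Points are single arrays coloured by genotype, short bars are the geometric mean of 2 arrays, and grey lines separate T0, LD at T12 and the other muscles. At T0 the purple and red points (CC and CN) stand above the blue and black ones (NC and NN) in all 4 panels, and at T12 FBXO32 is highest in CN of LD among the genotypes of that muscle.

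ARRDC2 was divided in the same way at birth and was not at T12. On its brighter probe set, the LD signals at T0 were 558 and 496 in CC, 564 and 695 in CN, 114 and 123 in NC, and 20.8 and 50.7 in NN. CN and CC were adjacent without overlap, NC was 5.28-fold lower than CN, and 1 of the NN arrays was below 47.4. The difference of CN from the other genotypes was 2.31 ± 1.04, from 626 against 126. Since NN at T0 was near background, its fold differences for ARRDC2 are uncertain.

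At T12 the ARRDC2 signals in LD were 836 and 606 in CC, 1166 and 687 in CN, 1961 and 1041 in NC, and 867 and 779 in NN. NC was the only genotype with both arrays above those of NN, and CN overlapped CC, NC and NN. The difference of CN from the other genotypes was -0.07 ± 1.04. From T0 to T12 the level was 25.3 times as high in NN, 12.1 times in NC, 1.43 times in CN and 1.35 times in CC, and in CN the arrays of the 2 ages overlapped. Over the other genotypes together the difference with age was 2.90 ± 0.74.

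In the other muscles ARRDC2 read 697 and 642 in SM, 788 and 434 in ST, and 482 and 483 in SS of NN, against 388 and 618 in SS of CN. SS of NN was 1.70 times below LD of NN, without overlap, and the CN and NN arrays of SS overlapped, with a difference of 0.02 ± 1.28. Of the 12 groups, the 10 highest formed an unbroken chain in which each overlapped its neighbour, and only NC and NN of LD at T0 stood apart below them. The whole span was 44.0-fold, and 30.1-fold with levels under 47.4 set to that value.

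The other ARRDC2 probe set went the other way. Its group levels were 15.8 to 145, mostly near background, and its 2 arrays of a group differed with an SD of 1.29 on the log2 scale, against 0.44 for the brighter one. Its difference of CN from the other genotypes was -2.06 ± 0.88 at T0 and 1.15 ± 0.88 at T12, with 1 CN array at 4.9 and the other at 50.8. Its levels had no relation to those of the brighter probe set (r = -0.09 over 12 groups). The ARRDC2 values above therefore hold for 1 of its 2 probe sets.

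RASD1 was ordered one way at birth and the other way at T12. At T0 its LD signals were 234 and 294 in CC, 354 and 343 in CN, 160 and 145 in NC, and 137 and 109 in NN. CN was the highest and NN the lowest, with no overlap between groups. CN was 2.85 times NN, and its difference from the other genotypes was 1.04 ± 0.50.

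At T12 the RASD1 signals were 545 and 490 in CC, 556 and 548 in CN, 859 and 1072 in NC, and 1589 and 1451 in NN. All 4 arrays of CC and CN were now below all 4 of NC and NN: CN was 2.75 times and CC 2.94 times below NN. CN differed from the other genotypes by -0.72 ± 0.50, and the CC arrays lay below those of CN. RASD1 was 12.4 times as high at T12 as at T0 in NN, 6.31 times in NC, 1.97 times in CC and 1.58 times in CN. Over the other genotypes together the difference with age was 2.42 ± 0.36, and the age difference in CN was smaller by 1.76 ± 0.71.

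RASD1 in the other muscles read 958 and 1078 in SM, 1159 and 1207 in ST, and 1396 and 1302 in SS of NN, all below LD of NN. In SS the CN arrays read 997 and 650, both below NN, a difference of -0.74 ± 0.62 that was -1.05 without the first CN array and -0.44 without the second. Over the 12 groups RASD1 spanned 12.4-fold, between LD of NN at T12 and the same muscle and genotype at T0. Overlapping neighbours were SM with LD of NC at T12, and LD of NC with SS of CN at T12.

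DDIT4 was bright in every group and had the smallest span of the 4 genes. Its LD signals at T0 were 5064 and 5707 in CC, 8289 and 7765 in CN, 3802 and 3272 in NC, and 4516 and 4818 in NN. CN stood above the other 6 arrays, CC was next, and NC was below NN, with no overlap. The CN level was 1.72 times that of NN, and its difference from the other genotypes was 0.85 ± 0.19.

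At T12 DDIT4 was lowest in CN. The signals were 11686 and 12810.3 in CC, 9760.5 and 9857 in CN, 12819 and 13505 in NC, and 12621 and 13607 in NN. Both CN arrays lay below the 6 of the other genotypes, among which NN overlapped CC and NC, and the difference was -0.39 ± 0.19. From T0 to T12 the level was 3.73 times as high in NC, 2.81 times in NN, 2.28 times in CC and 1.22 times in CN. Over the other genotypes together the difference with age was 1.53 ± 0.14, and the age difference in CN was smaller by 1.24 ± 0.27.

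Among muscles of NN at T12, DDIT4 was highest in LD, at 12321 and 11969 in SM, 10743 and 11069 in ST, and 9573 and 8740.1 in SS. SS was 1.43 times below LD, which is the reverse of the order of FBXO32. The CN arrays of SS read 7899 and 7922, below both NN arrays, a difference of -0.21 ± 0.24. Over the 12 groups DDIT4 spanned 3.73-fold. Overlapping neighbours were LD of NC, NN and CC at T12 and SM in turn, and LD of CN at T0 with SS of CN.

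**Figure D2:**
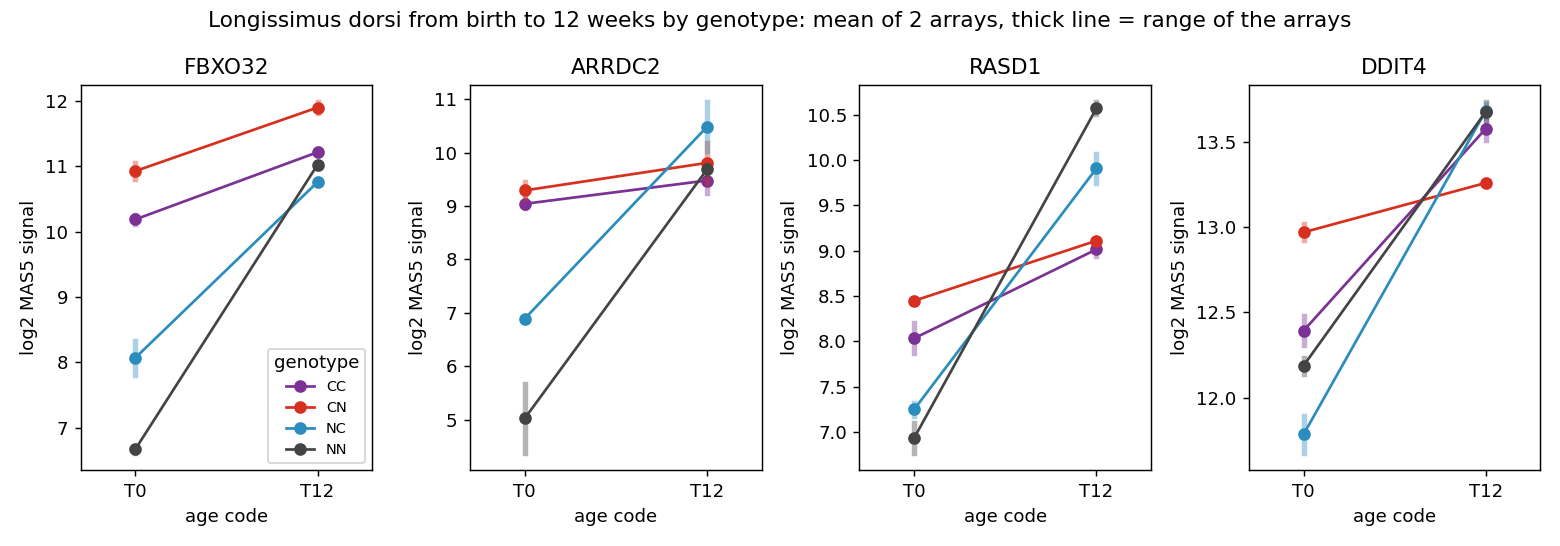
Log2 MAS5 signal of the 4 genes in LD at T0 and T12, 1 line per genotype joining the means of 2 arrays, with thick bars for the range of the 2 arrays. The NN and NC lines climb most, from 102 to 2085 for FBXO32 in NN, and the CN and NN lines cross for RASD1 and DDIT4. Each panel has its own y range.

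Across the genes, the brightest probe set of each had all 4 arrays of CC and CN above all 4 of NC and NN at T0. That split is one of the patterns on which the genes were chosen, and 4.47% of all tested probe sets showed it. At T12 the same split was present on the brighter probe set of FBXO32 but not on the dimmer one. It was reversed for RASD1 and absent for ARRDC2 and DDIT4. The share of all tested probe sets with either split at T12 is not given here, so how common they are is unknown. In the comparison of T12 with T0 in the other genotypes 5 of the 6 probe sets were called, beside 11.7% of all tested probe sets, and the exception was the dim ARRDC2 probe set. None of the 6 was called for CN against the other genotypes at T0 (0.173% called) or at T12 (0.179% called), or over the 4 muscles (1.29% called). The comparison over the muscles set SS, SM and ST of NN against the mean of CC, NC and NN in LD at T12. It is therefore not a test of the NN muscles alone. At T0, DDIT4 was called without the second array of CN, and 3 of the 6, DDIT4 and both FBXO32 probe sets, were called in the fit over all 24 arrays with a replicate block. None was called for the difference in age change (0% called by limma, 1396 of 15613 with an unadjusted p under 0.05) or for CN against NN in SS (0% called by limma, 651 of 15613 with an unadjusted p under 0.05), while the replicate block fit called DDIT4 for the difference in age change. The replicate block fit takes the technical arrays of a group almost as independent (consensus correlation 0.0368), so its calls count them as if they were separate samples. Because the genes were chosen with these contrasts in view, nothing is read from any of these counts.

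The wide spans can be set beside those of other bright genes. The 4 genes were chosen with these levels in view, so their place by span is a description only. Among 4369 probe sets with a mean log2 signal of at least 8, the median span between the highest and the lowest group was 0.89 on the log2 scale. With levels under 47.4 set to that value, the span was larger than that of FBXO32 (5.43) in 2 of them, than that of ARRDC2 (4.91) in 7, than that of RASD1 (3.63) in 25 and than that of DDIT4 (1.90) in 284. ARRDC2, FBXO32 and RASD1 each had their lowest level in LD of NN at T0.

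Over the 12 groups the log2 levels of the 4 genes had Pearson's r of 0.87 for FBXO32 with ARRDC2, 0.86 for RASD1 with DDIT4 and 0.73 for FBXO32 with DDIT4. The rank correlations (Spearman) of these pairs were 0.27, 0.71 and 0.30 in the same order. The 12 groups share the contrast of T0 with T12, which moves all 4 genes. Over the 8 groups at T12 alone, FBXO32 and DDIT4 were ordered in opposite ways (r = -0.94), FBXO32 and ARRDC2 had r = -0.64, FBXO32 and RASD1 r = -0.20, and ARRDC2 and DDIT4 r = 0.68. At that age RASD1 had r = 0.15 with DDIT4 and -0.17 with ARRDC2. These are descriptions of group means from the same arrays.

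The genes most like each member were taken by Pearson's r over the 12 group means among 3257 probe sets with 1 symbol and a mean log2 signal of at least 8. For FBXO32 they were CCPG1 (0.95), HBP1 (0.95), PIGB (0.95), RORA (0.94) and PNRC1 (0.94). HBP1 is a transcriptional repressor and RORA a nuclear receptor, and CCPG1 ran from 276 in LD of NN at T0 to 885 in SS of NN. For ARRDC2 they were REV3L (0.95), a DNA polymerase subunit, YPEL3 (0.94), POLR1D (0.93), CIR1 (0.93) and FIS1 (0.92), a mitochondrial fission protein. All 5 were lowest in LD of NN at T0, as was ARRDC2, and the choice by likeness favours a shared lowest group. YPEL3 had the widest span of these, from 508 to 3073.

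For RASD1 the most alike were ST3GAL6 (0.96), a sialyltransferase, FABP5 (0.94), a fatty acid binding protein, RPP25L (0.94), ADHFE1 (0.94) and RPA2 (0.93), a DNA replication protein. For DDIT4 they were ASB11 (0.95), ACBD5 (0.94), RPS4Y1 (0.94), FABP5 (0.94) and RGCC (0.94). ASB11, the substrate receptor of another ubiquitin ligase, ran from 404 in LD of NN at T0 to 1733 in LD of NN at T12. FABP5 stood on both lists. ARRDC2 was exceeded by 43 probe sets in likeness to FBXO32, and DDIT4 by 49 in likeness to RASD1, so the 4 genes are not each other's closest neighbours.

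Other genes of the same processes were taken from 4 lists: the atrophy programme, the glucocorticoid response, the mTORC1 pathway, and relatives and partners of the 4 genes. Of 131 listed genes 96 had a probe set with their symbol and 92 were tested, each on its brightest tested probe set, with 9 of the listed genes on more than 1 list. The 15613 tested probe sets also include dimmer ones of the same gene and ones without a symbol, since 9957 carried 1 symbol, for 7481 symbols. Shares of listed genes and of all tested probe sets are thus not of like sets. TRIM63, FOXO1, FOXO3, TSC22D3, PER1, KLF9, TXNIP and ARRDC3 were not analysed here. In LD at T0, 2 of the 92 were called higher in CN than in the other genotypes and none lower, against 0.173% of all tested probe sets. An unadjusted p under 0.05 was reached by 28 of the 92, and by 1825 of the 15613 probe sets tested. The count of 2 ran from 0 to 7 when 1 array was left out, the 7 without the first CN array at T0, which added PSMD11, GADD45A, NFKBIA, LAMTOR5 and TXN, and it was 16 in the replicate block fit.

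GABARAPL1, which takes part in autophagosome formation, rose in CN at T0. Its signals were 2451 to 2650 in CN, 1101 to 1281 in CC, 1052 to 1086 in NC and 780 to 806 in NN, a difference of 1.35 ± 0.21 (limma adjusted p = 0.0471). ERRFI1, a feedback inhibitor of the EGF receptor that glucocorticoids induce, also rose, at 301 to 393 in CN, 116 to 125 in CC, 96.8 to 109 in NC and 85.1 to 103 in NN, a difference of 1.71 ± 0.27 (limma adjusted p = 0.0477). Unlike FBXO32, both had CC close to NC and far from CN. Neither call was firm. Leaving out 1 array at a time ended the GABARAPL1 call in 11 of 24 fits and the ERRFI1 call in 12, all of them fits without an array of CC, NC or NN of LD, with adjusted p-values up to 0.0902. With quantile normalization both had an adjusted p of 0.0527, and with no filter ERRFI1 had 0.0521.

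List by list, the median difference of CN from the other genotypes at T0 was 0.25 over the 29 tested atrophy genes, 0.29 over the 26 glucocorticoid genes, 0.11 over the 28 mTORC1 genes and 0.06 over the 14 relatives, beside -0.02 over all tested probe sets. The call was 1 of 29, 1 of 26, 0 of 28 and 0 of 14 in turn. FKBP5, a chaperone of the glucocorticoid receptor and a classic target of it, read 415 to 598 in CN, 186 to 197 in CC, 129 to 163 in NC and 81.4 to 134 in NN, a difference of 1.80 ± 0.51 (limma adjusted p = 0.171). CEBPD, a transcription factor induced by glucocorticoids, read 1684 to 1711 in CN, 812 to 1069.9 in CC, 442 to 516 in NC and 475 to 530 in NN, a difference of 1.48 ± 0.34 (limma adjusted p = 0.0944). In both the 4 arrays of CC and CN were above the other 4, but the differences did not pass the test.

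The split between CC and CN on one side and NC and NN on the other was then counted over the lists, a description chosen after the values of the 4 genes were seen. At T0, 20 of 92 listed genes had all 4 arrays of CC and CN above all 4 of NC and NN, which is 21.7%, beside 4.47% of all tested probe sets. The listed genes were read on their brightest probe sets, so these shares are not of like sets. By list the counts were 11 of 29 atrophy genes, 8 of 26 glucocorticoid genes, 3 of 28 mTORC1 genes and 1 of 14 relatives. The atrophy genes included the mitophagy receptors BNIP3 and BNIP3L, the autophagosome proteins MAP1LC3B and GABARAPL1, the proteasome subunit PSMD11, the cell cycle inhibitor CDKN1A and myostatin (MSTN). BNIP3 read 1979 to 2098 in CN, 1286 to 1308 in CC, 494 to 592 in NC and 356 to 441 in NN. MSTN, or myostatin, which limits muscle growth, read 449 to 470 in CN, 491 to 738 in CC, 364 to 412 in NC and 188 to 208 in NN, with a difference of CN from the other genotypes of 0.36 ± 0.49 (limma adjusted p = 0.866).

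Of the glucocorticoid genes the split held for FKBP5, CEBPD, PDK4, GLUL, MAOA, ERRFI1, CDKN1C and SESN1. Glutamine synthetase (GLUL), a known glucocorticoid target of muscle, read 13913 to 17278 in CN, 13699.9 to 14587 in CC, 12657 to 12916 in NC and 6109 to 7148 in NN. SESN1, a stress-induced inhibitor of mTORC1, read 1313 to 1375 in CN, 1507 to 2388 in CC, 782 to 859.8 in NC and 449.7 to 661 in NN. The opposite split was present in 2 of 92, DUSP1 and GADD45B, beside 4.58% of all tested probe sets. DUSP1, a phosphatase also induced by glucocorticoids, was 615 to 682 in CN, 941 to 1019.8 in CC, 1184 to 1308 in NC and 1847 to 2067 in NN. In the glucocorticoid list, 8 of 26 genes thus had the split of FBXO32 and 2 the opposite one. The part of glucocorticoids in that split was not tested.

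**Figure D3:**
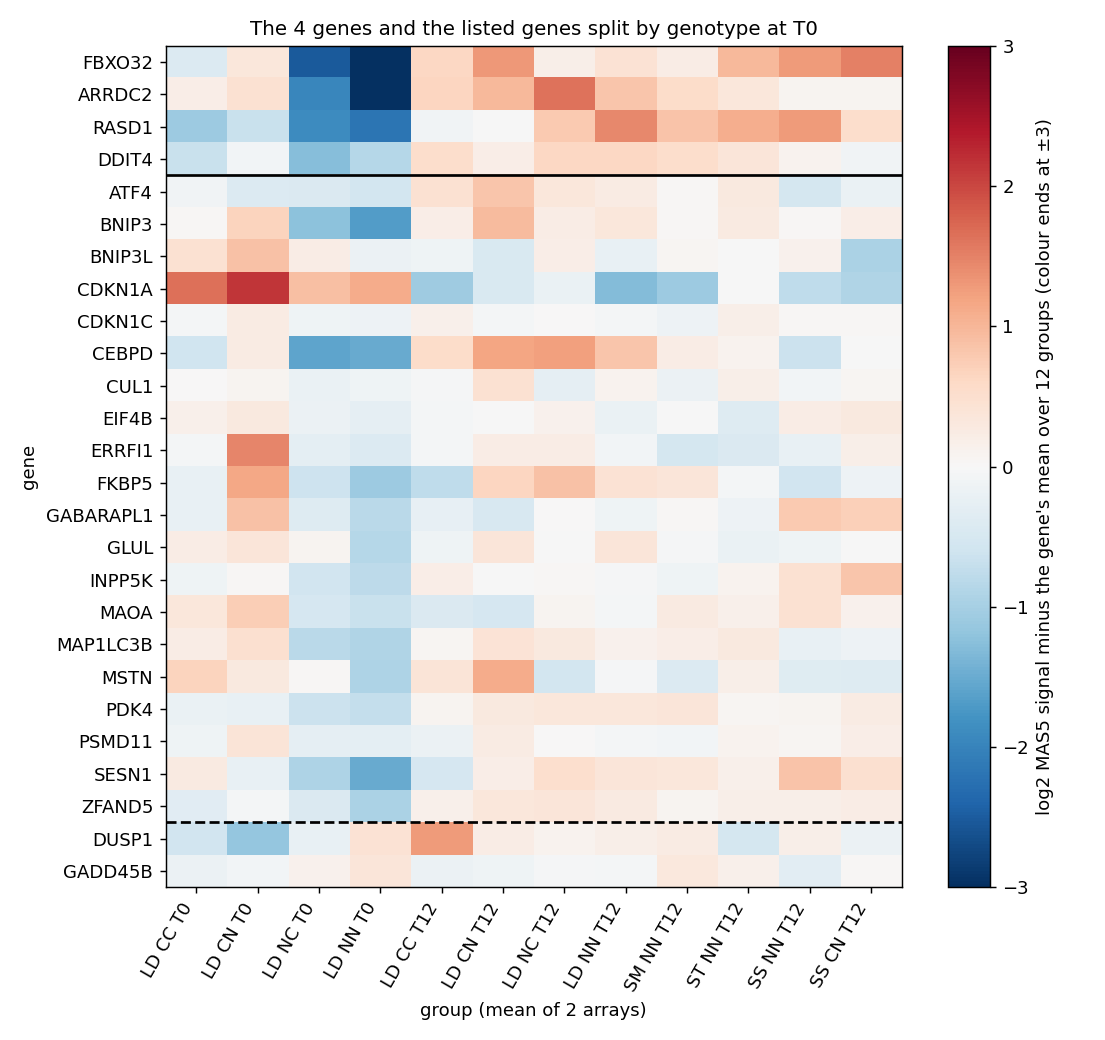
Log2 MAS5 signal of the 4 genes and of the 22 listed genes split by genotype at T0, each minus its mean over the 12 groups, with groups along the x axis and genes down the y axis. The 20 genes above the dashed line had all arrays of CC and CN above those of NC and NN at T0, and the 2 below it the reverse. FBXO32, ARRDC2 and RASD1 have the deepest blue in NN of LD at T0, and the colour scale ends at a difference of 3.

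Several measures of RNA and tissue moved with the same groups at T0. Adipocyte markers (5 of 6 measured) summed to 689 to 904 on the arrays of CC and CN and to 1114 to 1480 on those of NC and NN, without overlap. The log2 ratio of the 3′ to the 5′ GAPDH probe sets was 0.13 to 0.23 in CC and CN and 0.25 to 0.31 in NC and NN. The same ratio for actin overlapped, at 0.01 to 0.22 in CC and CN and -0.07 to 0.20 in NC and NN. Endothelial markers (6 of 6) summed to 1965 to 2003 in CN and to 2239 to 2657 in the other genotypes, and fibroblast and matrix markers (6 of 6) to 44892 to 49354 in CN and to 57872 to 68844 in the others. Slow fibre markers (8 of 9) summed to 93102 to 105006 in CN and to 110224 to 132870 in the others. Red blood cell markers (4 of 5) summed to 134 to 140 in CN and to 186 to 325 in the others. Immediate early genes (9 of 9), which respond to tissue handling, overlapped in their sum, at 6774 to 7260 in CN and 6117 to 7860 in the others. Single members of that list stood on both sides: the level of MYC was 2943 in CN and 872 in the others (limma adjusted p = 0.05, just above the threshold), that of IER3 702 and 1481 (limma adjusted p = 0.0894), and that of ATF3 145 and 437 (limma adjusted p = 0.267). The part of these measures in the levels of the 4 genes was not tested.

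The comparison of T12 with T0 in LD of the other genotypes moved many listed genes. Of the 92, 18 rose and 10 fell, which is 30.4% called beside 11.7% of all tested probe sets, a set not like the listed one. By list, 8 rose and 2 fell of 29 atrophy genes, 7 rose and 2 fell of 26 glucocorticoid genes, 3 rose and 4 fell of 28 mTORC1 genes, and 1 rose and 2 fell of 14 relatives. The median difference was 0.14, 0.44, 0.05 and -0.24 in the same order, beside 0.06 over all tested probe sets. Of the 28 calls 16 were kept in every fit that left out 1 array and under every other setting tried. Of the 12 that were lost in at least 1 fit, 10 were lost without the second array of LD of NC at T12, a fit that called 18 listed genes.

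Among the atrophy genes the ubiquitin system members ZFAND5 (0.84 ± 0.14) and UBE2B (0.43 ± 0.09), the autophagy receptor SQSTM1 (0.81 ± 0.20) and the mitophagy receptor BNIP3 (1.21 ± 0.33) rose with age. PDK4, which blocks glucose oxidation, rose by 0.77 ± 0.14 (limma adjusted p = 0.00512), from 9231 to 15762. The factors FOXO4 (0.94 ± 0.19), NFE2L2 (0.63 ± 0.14) and ATF4 (0.71 ± 0.12) rose as well. CDKN1A, a cell cycle inhibitor, went the other way and fell by 2.08 ± 0.28 (limma adjusted p = 0.0013), from 688 to 163. IGFBP5 fell by 1.93 ± 0.45 to a T12 level of 26.2, which is under 47.4. The SQSTM1 call was lost in 4 of 24 fits that left out 1 array (adjusted p up to 0.0931). That of BNIP3 was lost without the first array of LD of CC or of NN at T12 (up to 0.0641), and that of NFE2L2 without the second array of LD of NC or of NN at T12 (up to 0.303). That of IGFBP5 was lost without the second array of LD of NC at T12 (0.0551).

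In the glucocorticoid list CEBPD had the largest rise, 2.09 ± 0.24 (limma adjusted p = 0.000691), from 607 to 2589. CEBPB, a related factor, rose by 1.18 ± 0.16, NFKBIA, the inhibitor of NF-kappaB, by 1.16 ± 0.20, and ANGPTL4, an inhibitor of lipoprotein lipase, by 1.12 ± 0.19. The receptor NR3C1 rose by 0.43 ± 0.11 (limma adjusted p = 0.0296) and the metallothionein MT2A by 0.71 ± 0.20, and these calls were lost in 4 and 5 of the 24 fits that left out 1 array, with adjusted p-values up to 0.241 and 0.191. SGK1, a kinase that glucocorticoids induce, fell by 1.26 ± 0.21, and the amino acid transporter SLC38A2 fell by 0.74 ± 0.11. FKBP5 had a difference of 0.83 ± 0.36 (limma adjusted p = 0.173) and KLF15, a factor induced by glucocorticoids, one of -0.21 ± 0.39 (limma adjusted p = 0.779). Of the 26 tested genes of this list, 20 had a positive difference and 6 a negative one. The part of glucocorticoids in the age differences of the 4 genes was not tested.

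In the mTORC1 list the activating GTPase RHEB (0.36 ± 0.09), the AMP-activated kinase subunit PRKAA1 (0.60 ± 0.16) and the lysosomal scaffold LAMTOR5 (0.55 ± 0.10) rose. The ribosomal protein RPS6, a substrate of the pathway, fell by 0.68 ± 0.08 (limma adjusted p = 0.000966), from 15772 to 9825. HIF1A (fell by 0.80 ± 0.12), the TSC complex subunit TBC1D7 (fell by 0.70 ± 0.16) and the GTPase RRAGA (fell by 0.35 ± 0.10) were lower at T12. The RRAGA call was lost in 8 of 24 fits that left out 1 array, that of PRKAA1 in 4, and those of RHEB and TBC1D7 in 2, with adjusted p-values up to 0.146, 0.111, 0.0811 and 0.0946. DDIT4L, the paralogue of DDIT4, had a difference of -0.14 ± 0.18 (limma adjusted p = 0.665), where that of DDIT4 was 1.53.

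Among the relatives and partners, FBXO25, the closest paralogue of FBXO32, rose by 0.64 ± 0.18 (limma adjusted p = 0.0452), a call lost in 9 of 24 fits that left out 1 array (adjusted p up to 0.0957). GNAI2, an inhibitory G protein subunit of the kind RASD1 acts on, fell by 0.39 ± 0.10, and thioredoxin (TXN) fell by 0.59 ± 0.10. The GNAI2 call was lost without the second array of LD of NC at T12 (adjusted p = 0.0907). Each of these 3 differences was smaller than those of the 4 genes on their brightest probe sets.

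**Figure D4:**
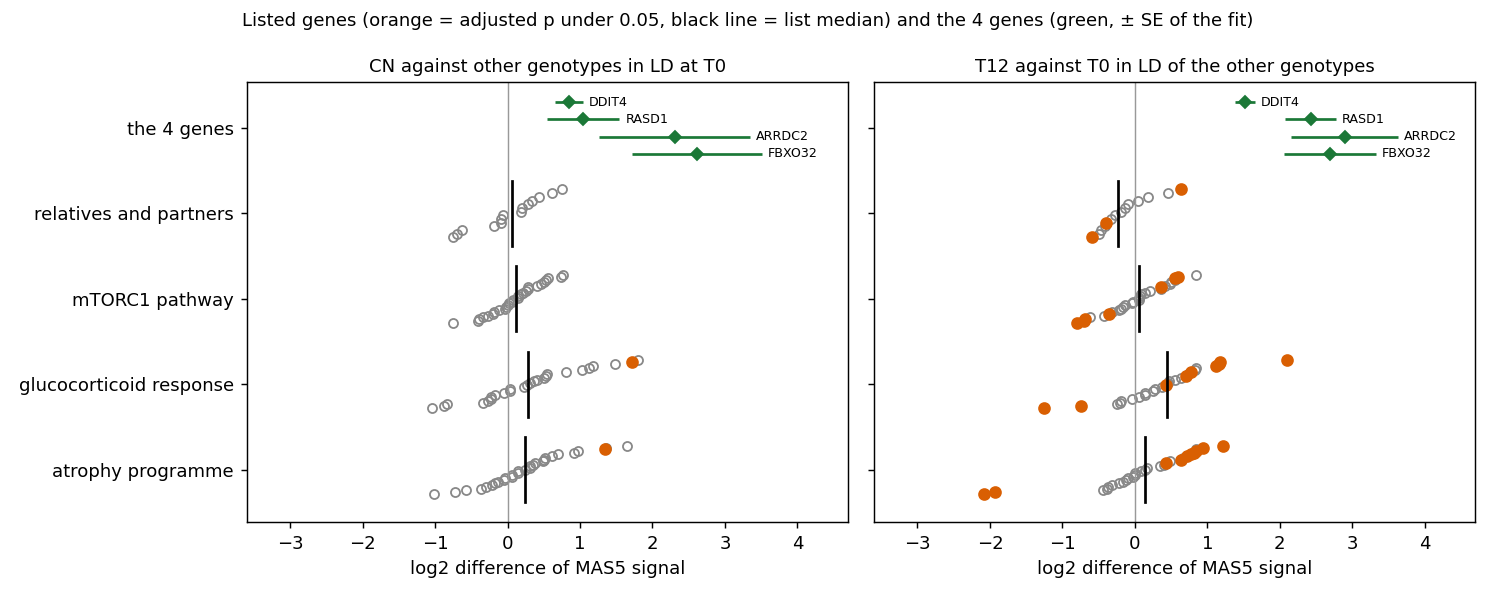
Log2 difference of MAS5 signal between CN and the other genotypes at T0 (left) and for T12 against T0 in LD of the other genotypes (right). Each circle is a listed gene, orange where its limma adjusted p was under 0.05, black lines are list medians, and green diamonds with bars are the 4 genes with ± SE of the fit. The green points lie from 0.85 to 2.62 on the left and from 1.53 to 2.90 on the right, where 18 called genes lie above 0 and 10 below. A gene on more than 1 list is drawn once in each.

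Measures of tissue also moved with age in LD of the other genotypes. Adipocyte markers summed to 689 to 1480 at T0 and 446 to 878 at T12, fibroblast and matrix markers to 57872 to 68844 and then 38549 to 53034, and red blood cell markers to 186 to 325 and then 81.2 to 171. Immediate early genes summed to 6117 to 7860 at T0 and 7267 to 17732 at T12, and immune cell markers (5 of 6) to 268 to 378 and then 419 to 511. Array medians at T0 were 47.4 to 52.9 over the 4 genotypes of LD and at T12 49.7 to 58.0. The part of these measures in the age differences of the 4 genes was not tested.

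For CN against the other genotypes at T12, none of the 92 listed genes was called, beside 0.179% of all tested probe sets, and 11 had an unadjusted limma p under 0.05. Without the first CN array at T12, TSC1 and TBC1D7 were called, and without the second, CRISPLD2 and CASTOR1; the replicate block fit called 2. Myostatin (MSTN) read 640 to 1055 in CN, 340 to 705 in CC, 218 to 305 in NC and 293 to 468 in NN, a difference of 1.19 ± 0.49 (limma adjusted p = 0.435). DDIT4L, lower in CN than in the other genotypes at T0 (2644 to 2708 against 3406 to 6053), was the highest in CN at T12 (5422 to 5809 against 3230 to 5126), which is the reverse of DDIT4. Its differences were -0.76 ± 0.25 (limma adjusted p = 0.252) and 0.45 ± 0.25 (limma adjusted p = 0.623).

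Measures of tissue also separated CN from the other genotypes of LD at T12. Slow fibre markers summed to 73104 to 78588 in CN and to 104866 to 142857 in the others, and of these MYH7 (-0.89 ± 0.14, limma adjusted p = 0.0492) and TNNT1 (-0.97 ± 0.14, limma adjusted p = 0.0366) were called lower. Fibroblast and matrix markers summed to 28631 to 33043 in CN and to 38549 to 53034 in the others, and immune cell markers to 271 to 349 and 419 to 511. The 3′ to 5′ GAPDH ratio in LD at T12 split CC and CN (-0.03 to 0.08) from NC and NN (0.19 to 0.25), while that of actin overlapped. Among the muscles of NN at T12, adipocyte markers summed to 484 to 613 in LD, 1168 to 1178 in SM, 1315 to 1344 in ST and 2577 to 2659 in SS. Slow fibre markers summed to 190558 to 199658 in SS and to 130817 to 142857 in LD, and endothelial markers to 1903 to 1995 in SS and 2891 to 2985 in LD. The part of these measures in the T12 and muscle differences of the 4 genes was not tested.

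For CN against NN in SS no listed gene was called by limma, and 5 of 92 had an unadjusted p under 0.05. None was called over the 4 muscles, with 13 of 92 at an unadjusted p under 0.05, or for the difference in age change between CN and the other genotypes, also with 13 of 92. Over the muscles, 1 listed gene was called in each of 4 fits that left out 1 array: GNAI3 without the first array of SM, CRISPLD2 without the first and ATF4 without the second of SS of NN, and SLC38A2 without the first of ST. The replicate block fit called 6 over the muscles and 3 for the difference in age change. FKBP5 in SS read 164 to 249 in CN and 143 to 160 in NN, a difference of 0.42 ± 0.63, and CEBPD 1340 to 1493 in CN and 873 to 938 in NN, a difference of 0.64 ± 0.42 (limma adjusted p = 1 for both). In SS of CN, the group with the highest FBXO32 level, both arrays were lower than those of SS of NN for RASD1 and DDIT4, and higher for CEBPD. None of these differences was called, and the share of all tested probe sets without overlap in SS was not counted.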

How the data were processed

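Total RNA of sheep muscle was extracted with Trizol and labelled as biotinylated cRNA from 5 µg, per the labels. The deposited value is a linear signal intensity per probe set, made with MAS5 per the submitters' processing notes, with no version stated there. The trimmed mean signal (2% left out at each end) was 200.1 on every array, so the authors had scaled the arrays alike. Gene names come from the platform annotation: of 24128 probe sets, 13318 carried 1 symbol, 86 more than 1 and 10724 no symbol. Log2 was taken of values floored at 1. The 2 technical arrays of a group were averaged, and the 12 values entered 1 fit with limma 3.58.1 in R 4.3.3 (8 cells, 4 residual degrees of freedom, moderated with a trend). Control probe sets (112) and probe sets above the median log2 signal in no group were left out, and 15613 were tested with Benjamini-Hochberg adjustment. The fit was tested on simulated data for the comparison of T12 with T0 only, with large planted changes and equal noise in every probe set. That test does not cover the comparisons of CN, of SS or of the muscles. Technical arrays of one group had r of 0.974 to 0.988 over probe sets with a mean log2 signal above 8, and at most 0.336% of their values were identical.

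The members and the gene lists were chosen with earlier results of these data known. Named genes are every probe set of the 4 symbols, for each of them the 5 probe sets most alike over 12 group means, every listed gene that was called, and FKBP5, CEBPD, NR3C1, PDK4, MSTN, KLF15, DDIT4L and SESN1 without regard to calls. BNIP3L, MAP1LC3B, PSMD11, GLUL, MAOA, CDKN1C, DUSP1 and GADD45B were named after their values were seen, for the split at T0. The alternatives were a floor of 16, quantile normalization, no filter, the mean of linear signals, the other probe set of a gene, NN alone as the comparator, a fit over all 24 arrays with a replicate block, and leaving out each array in turn. The replicate block fit held the replicate number as a fixed term and the group as a random effect. The listed-gene counts by setting and the spans with low levels set to 47.4 were chosen after seeing the data.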

Additional observations from a re-analysis of the deposited data

Results flagged for a closer look

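These are results in LD, looked for among some of the genes named above and not among all tested probe sets. In some, CN lay on opposite sides of the other genotypes at T0 and T12, on every array. In some, a genotype and NN changed in opposite directions with age, also on every array. The share of all tested probe sets with either pattern is not given here, so how common they are is unknown. DDIT4 was higher at T12 in every genotype, but it was above all arrays of the other genotypes in CN at T0 and below them at T12, and its age change in CN minus theirs was -1.24. GABARAPL1 also went from above to below the other genotypes, with a difference of -1.71 (limma adjusted p = 0.197), and its age change was opposite to that of NN, with a difference of -2.04. DDIT4L did the reverse, with a difference of 1.21 from the other genotypes. Its age change was also opposite to that of NN in CC (-0.74) and in NC (-0.49).

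FKBP5 was lower at T12 than at T0 on both arrays of CC and of CN and higher on both of NN, a difference in age change of -2.08 for CC and -2.05 for CN. SESN1 was lower at T12 in CC and higher in NN, a difference of -2.65. MSTN was lower at T12 in NC and higher in NN, a difference of -1.49. These differences for single genotypes were not tested.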

How the results depend on the processing

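The count of probe sets called for CN at T0 was 27, and it was 66 with a floor of 16 and 7 with quantile normalization. For CN at T12 it was 28, and 11 both with quantile normalization and with no filter. In the fit over all 24 arrays with a replicate block, the counts were 565 for CN at T0, 247 for CN at T12, 2854 for T12 against T0 (1831 otherwise), 146 for the difference in age change and 3 for CN in SS (0 otherwise for both), and 854 over the 4 muscles (201 otherwise). That fit gave the arrays of a group a consensus correlation of 0.0368, so it treats technical arrays almost as independent. Replicate numbers do not pair the samples, since deviations of the first arrays correlated between groups with r from -0.07 to 0.10. Leaving out 1 array gave 3 to 268 probe sets for CN at T0, 1 to 414 for CN at T12, 0 to 37 for the difference in age change, 0 to 12 in SS and 125 to 383 over the muscles.

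With NN alone as comparator, the T0 difference of CN was 4.26 for FBXO32, 4.27 for ARRDC2 and 1.51 for RASD1, the T12 difference of RASD1 was -1.46, and the age difference was 4.35 for FBXO32, 4.66 for ARRDC2 and 3.63 for RASD1. The difference in age change was then -3.38 for FBXO32, -4.15 for ARRDC2 and -2.97 for RASD1, each over 1.5 times that against the other genotypes together. The dim ARRDC2 probe set gave -2.06 at T0, 1.15 at T12, -0.28 with age and 3.21 for the difference in age change, all 4 opposite in sign to the brighter one (2.31, -0.07, 2.90 and -2.38). DDIT4 at T0 was 0.98 with quantile normalization.
The ARRDC2 differences of CN at T12, small in LD and in SS, took both signs when 1 array was left out, from -0.46 to 0.31 in LD and from -0.31 to 0.36 in SS.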
